A study of Mus musculus with 24 samples.

Results

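A set of nuclear receptor genes without a classical ligand, 8 of the 26264 genes in the deposited table, were followed through the first hours of retinoic acid (RA) in mouse embryonic stem cells (ESCs). They were chosen by symbol, with earlier results of these data known, among orphan receptors with a known place in ESCs or in RA differentiation. The members are *Nr2f1*, *Nr2f2*, *Nr2f6*, *Nr6a1*, *Nr5a2*, *Nr0b1*, *Nr2c1* and *Nr2c2*. RNA-seq of oligo-dT selected RNA was made from 24 libraries, from 2 ESC lines that carry an auxin-inducible degron on BAP1, the H2AK119ub1 deubiquitinase (BAP1-AID), or on UTX, the H3K27me3 demethylase encoded by *Kdm6a* (UTX-AID). Each line was analysed without (−IAA) and with (+IAA) the auxin indole-3-acetic acid, at 0, 3 and 6 h of RA, with 2 replicates for each of the 12 combinations. All cells, the −IAA controls included, carry the tag and overexpress TIR1, the adaptor through which auxin acts, and IAA was added before RA. The lines were grown on gelatin with serum and LIF. No untagged line was analysed here, so an effect of IAA itself and one of the loss of the tagged protein cannot be told apart, and neither can a difference between tagged proteins and one between clones.

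RA was given together with the removal of LIF, the cytokine that holds ESCs in self-renewal, and no library had one without the other, so the effects of RA and of LIF removal cannot be told apart. In bulk RNA, fewer cells that express a gene and less RNA per cell cannot be told apart either. Library totals were between 42018795 and 54034789 counts (median 49836516), and 3 counts corresponded to 0.0555 to 0.0714 CPM of the library total as deposited. All other CPM are scaled to the TMM-normalized library size. The sum of 9 ESC markers was 4115 to 5059 CPM in the 24 libraries, whereas sums of marker lists were 51.6 to 101 CPM for neural cells, 4.30 to 16.1 CPM for mesoderm, 2.24 to 8.99 CPM for extraembryonic endoderm and 0.852 to 10.2 CPM for fibroblasts. *Cyp26a1*, an RA-degrading enzyme and direct RA target, went from 1.16 to 479 CPM in BAP1-AID and from 0.360 to 124 CPM in UTX-AID between 0 and 6 h without IAA. The transcripts of the tagged genes were present in every library, since a degron removes protein: *Bap1* was at 93.3 to 105 CPM in −IAA and 93.7 to 105 CPM in +IAA BAP1-AID libraries, and *Kdm6a* at 93.5 to 114 and 107 to 125 CPM in UTX-AID libraries.

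Nuclear receptors share a zinc finger DNA-binding domain and a ligand-binding domain, and those called orphan act without a classical hormone. COUP-TFI and COUP-TFII (*Nr2f1*, *Nr2f2*) and the related EAR2 (*Nr2f6*) are mostly repressors, and the first pair is known as RA-responsive in differentiating cells. GCNF (*Nr6a1*) binds *Pou5f1* and *Nanog* and silences them during differentiation, LRH-1 (*Nr5a2*) activates *Pou5f1* in ESCs, and DAX1 (*Nr0b1*), which lacks the zinc finger domain and is X-linked, acts as a cofactor of pluripotency factors and of LRH-1. TR2 and TR4 (*Nr2c1*, *Nr2c2*) bind direct repeats and recruit repressive complexes to developmental genes.

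Most of these receptors recognise the hexamer AGGTCA, alone or as a repeat, and its occurrence in the promoters of the members is shown because it is the shared letter code of the family. In the 250 bases upstream of the canonical start (GRCm39, GENCODE vM39), AGGTCA on either strand was found in 3 of the 8 members, against 13.1% of 21751 promoters of the same length. The sites are printed with 10 bases on either side, read in the direction of AGGTCA, with the hexamer in capitals.
*Nr2f6*, chr8:71835013-71835038, plus strand: ccgcgctgttAGGTCAaggggtcccc
*Nr6a1*, chr2:38674603-38674628, plus strand: tcaggctctaAGGTCAcagtgtgcat
*Nr6a1*, chr2:38674557-38674582, plus strand: tcatcctcacAGGTCAgtttacaagc
*Nr0b1*, chrX:85235245-85235270, plus strand: tgagctttcgAGGTCAtggccacaca
They lie 104, 91, 45 and 83 bases upstream of the starts of the canonical transcripts, on the strand opposite to the gene in *Nr2f6* and *Nr6a1* and on the gene's own strand in *Nr0b1*. The longer form TCAAGGTCA had no match in any member, against 0.432% of all promoters. Direct repeats were searched with a looser hexamer, which allowed A or G as the first base and G or T as the third. With 0, 1, 2 or 5 bases between its copies, such repeats were in no member and in 0.193%, 0.184%, 0.0919% and 0.0552% of all promoters. The *Nr6a1* window, chr2:38674528-38674777, lies inside the annotated gene, which spans chr2:38613382-38817700. The windows of *Nr2f2*, *Nr2f6*, *Nr5a2* and *Nr2c2* also lie inside their annotated genes, and that of *Nr2c1* lies partly inside. Annotated exons of the member itself fall in the windows of *Nr2f2*, *Nr2f6*, *Nr6a1*, *Nr2c1* and *Nr2c2*. Exons of other genes fall in the windows of *Nr2f1*, *Nr2f2* and *Nr5a2*. A match of letters is a description of the window and not a binding site.

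The members lie on 8 chromosomes (GRCm39, GENCODE vM39): *Nr2f1* at chr13:78337092-78348578, *Nr2f2* at chr7:70001692-70016519, *Nr2f6* at chr8:71826456-71835239, *Nr6a1* at chr2:38613382-38817700 and *Nr5a2* at chr1:136770303-136888186 on the minus strand, and *Nr0b1* at chrX:85235338-85239554, *Nr2c1* at chr10:93983546-94034416 and *Nr2c2* at chr6:92068059-92151275 on the plus strand. Exons of 5 of them overlap a gene on the other strand. *Nr2f6* overlaps *Ocel1*, *Nr2c2* overlaps *Mrps25* and *Gm44249*, *Nr2f1* overlaps *A830082K12Rik* (0 to 5 counts), *Nr2f2* overlaps *B130024G19Rik* (0 counts in every library) and *Gm72772*, and *Nr5a2* overlaps *Gm70689*. No count of *Gm44249*, *Gm72772* or *Gm70689* was used here. Whether the counting used strand is not given in the sources used here, so reads of *Nr2c2* and *Mrps25*, which stood at 4360 to 6111 counts, cannot be told apart. *Mrps25* and *Ocel1*, the latter at 97 to 268 counts, passed no test of RA or IAA.

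Per length of transcript, *Nr0b1* was the highest member in every group. In BAP1-AID ESCs without IAA at 0 h, *Nr0b1* was at 45.6 RPKM (CPM divided by transcript length in kilobases), *Nr6a1* at 20.4, *Nr2c2* at 7.52, *Nr2f6* at 6.46, *Nr5a2* at 4.74 and *Nr2c1* at 1.40 RPKM, and no neighbours in that order overlapped. In UTX-AID ESCs the levels were 62.6, 11.3 and 9.36 RPKM for *Nr0b1*, *Nr6a1* and *Nr2c2*, while *Nr5a2* (5.86) and *Nr2f6* (5.59 RPKM) overlapped and *Nr2c1* was again lowest of the 6 (1.15 RPKM). At 6 h *Nr6a1* stood closer to *Nr0b1*, at 54.8 against 84.2 RPKM in BAP1-AID and 26.1 against 76.5 RPKM in UTX-AID. *Nr2f1* and *Nr2f2* reached at most 0.121 RPKM in any library.

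**Figure D1:**
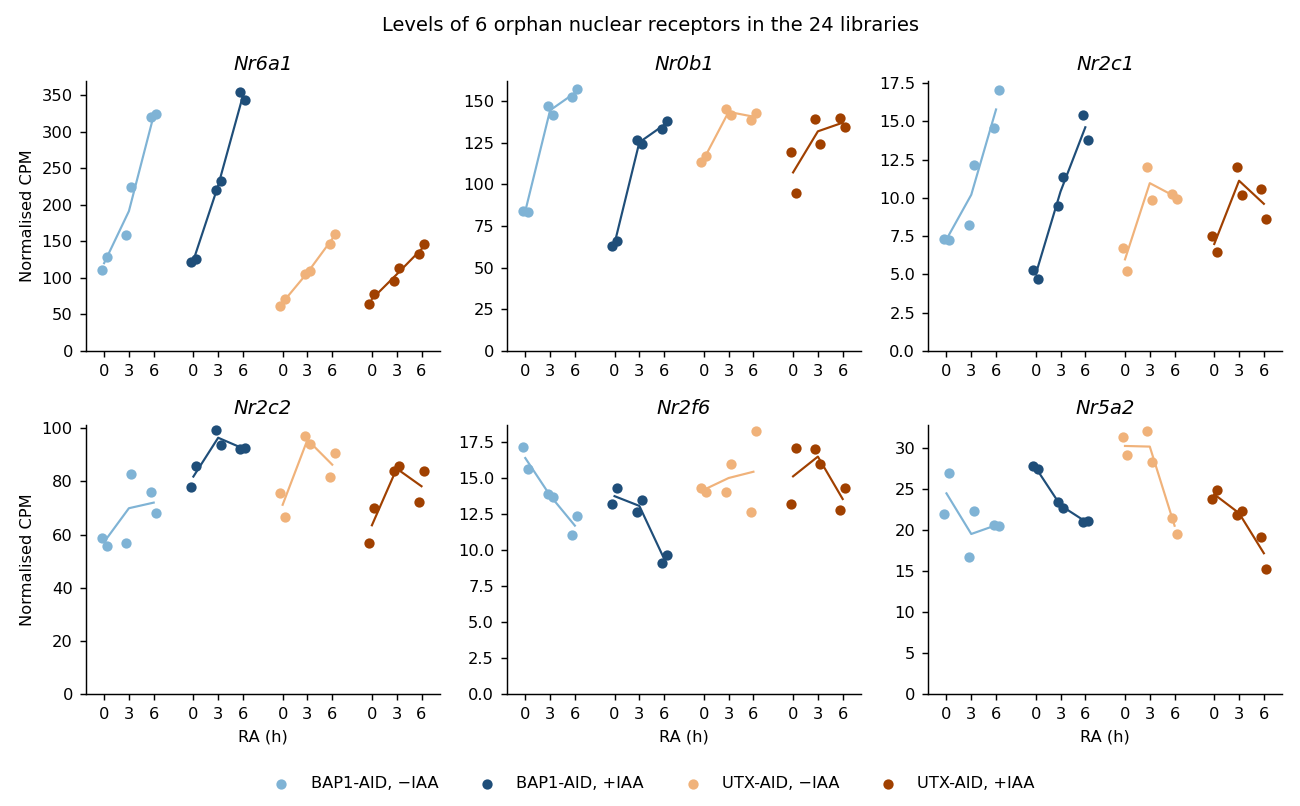
Each panel plots the CPM of 1 member (y axis) at 0, 3 and 6 h of RA (x axis), with a point for each library and a line through the group means of each line and IAA arm. *Nr6a1* rises at each time in all 4 arms, from 62.2 to 129 CPM at 0 h to 132 to 355 CPM at 6 h, and *Nr0b1* starts lower and rises further in BAP1-AID than in UTX-AID.

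The question put to the RA time course was which receptors moved within 3 and 6 h, and whether they moved alike in both lines. *Nr6a1*, *Nr0b1* and *Nr2c1* rose, in all or most arms. *Nr2f6* fell in BAP1-AID, *Nr5a2* fell in UTX-AID, *Nr2c2* rose in UTX-AID at 3 h, and the COUP-TF pair stayed near the limit of detection. For *Nr2f6* and *Nr5a2* at 6 h and *Nr2c2* at 3 h, a difference between the lines was not shown by edgeR (adjusted p = 0.0729, 0.514 and 0.855). *Nr2f6* passed that test by DESeq2 (adjusted p = 0.0466). With a correction of the counts for GC content and transcript length *Nr5a2* also fell in BAP1-AID at 6 h. A gene was called when its adjusted p was below 0.05 and its log2 fold change (log2FC) beyond 1 in either direction, and the word rose or fell is used for an adjusted p below 0.05 alone (edgeR, quasi-likelihood test, Benjamini-Hochberg over all genes tested in a line). The 3 h and the 6 h comparison of an arm share their 0 h libraries. Since the members were chosen with earlier results of these data known, shares of all genes are given for scale alone.

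In BAP1-AID without IAA, 0 of the 8 members tested were called at 3 h, with 6 at an unadjusted p below 0.05 and 0 called by DESeq2, where 2.25% of all genes were called. At 6 h 2 of 8 were called against 4.10%. With IAA, 1 of 8 was called at 3 h against 2.41% and 3 of 8 at 6 h against 4.51%. By adjusted p alone the members passing were 2, 4, 3 and 4 in this order of comparisons, and the shares of all genes 7.37%, 15.9%, 6.52% and 15.4%. In UTX-AID, where *Nr2f2* was too low to be tested, 0 of 7 were called at 3 h in either arm, with 4 in each at an unadjusted p below 0.05 and 0 by DESeq2, against 1.51% of all genes without and 1.26% with IAA. At 6 h 1 of 7 was called in each arm, against 1.91% and 2%. By adjusted p alone 4 and 3 members passed at 3 h in UTX-AID without and with IAA, against 4.84% and 3.57% of genes, and 3 in each arm at 6 h, against 6.90% and 6.45%.

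**Figure D2:**
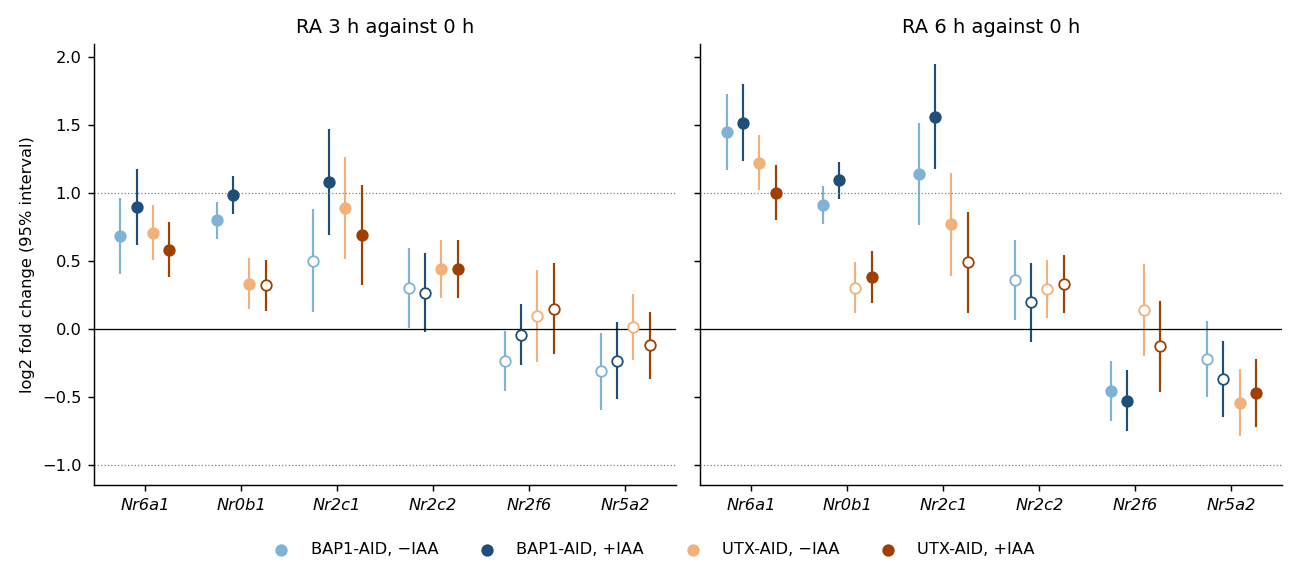
Log2FC against 0 h (y axis) of 6 members (x axis) at 3 h (left) and 6 h (right) in the 4 arms, with 95% intervals, filled where the adjusted p is below 0.05 and with dotted lines at a log2FC of 1 in either direction. *Nr6a1* lies at 1.00 to 1.52 at 6 h in all arms, and *Nr0b1* at 0.91 and 1.09 in BAP1-AID against 0.30 and 0.38 in UTX-AID.

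*Nr6a1*, the GCNF gene, had the most even course of the members. In BAP1-AID without IAA it stood at 111 and 129 CPM at 0 h, 158 and 224 CPM at 3 h, and 320 and 325 CPM at 6 h. With IAA the values were 122 and 125, 221 and 232, and 355 and 344 CPM. Every RA-treated library was above every 0 h library of its arm, and those of 6 h above those of 3 h. UTX-AID ESCs without IAA gave 62.2 and 70.5 CPM at 0 h, 105 and 109 CPM at 3 h, and 147 and 160 CPM at 6 h. With IAA they gave 64.9 and 77.4, 96.2 and 114, and 132 and 147 CPM. The order of times was the same as in BAP1-AID, from a lower starting level, and the 6 h libraries of UTX-AID, at 132 to 160 CPM, lay near the low end of the 3 h libraries of BAP1-AID, at 158 to 232 CPM.

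The log2FC of *Nr6a1* at 6 h was 1.45 in BAP1-AID without IAA (SE 0.13, adjusted p = 9.44e-06) and 1.52 with IAA (SE 0.13, adjusted p = 5.78e-06). In UTX-AID it was 1.22 (SE 0.10, adjusted p = 5.75e-07) and 1.00 (SE 0.10, adjusted p = 3.88e-06), the last at the edge of the fold criterion. Its 3 h values were 0.69, 0.90, 0.71 and 0.58 in the same order of arms, with adjusted p = 0.00535, 0.000726, 0.00021 and 0.00136 (edgeR). All 8 comparisons thus passed on adjusted p. At 3 h without IAA in BAP1-AID the log2FC was 0.57 (adjusted p = 0.0642) without 0 h replicate 1, 0.92 without 3 h replicate 1 and 0.40 without 3 h replicate 2, the adjusted p of both latter fits being below 0.05. Between 3 and 6 h *Nr6a1* rose further, by 0.69 in BAP1-AID (95% interval 0.49 to 0.89, adjusted p = 0.00071) and by 0.47 in UTX-AID (0.33 to 0.61, adjusted p = 0.0015), as means of both IAA arms (edgeR). The difference between lines in the 6 h response was -0.37 (UTX-AID minus BAP1-AID, -0.62 to -0.12) and missed the threshold, with an adjusted p of 0.12, which became 0.0244 and 0.0142 without 3 h replicate 1 or replicate 2 of BAP1-AID without IAA.

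The 3 h libraries of BAP1-AID without IAA differed from each other for several members, with replicate 2 above replicate 1 by 224 against 158 CPM for *Nr6a1*, 12.2 against 8.25 for *Nr2c1*, 82.8 against 56.9 for *Nr2c2* and 22.3 against 16.7 CPM for *Nr5a2*. *Nr0b1* (142 against 147 CPM) and *Nr2f6* (13.7 against 13.9 CPM), both with a higher GC content, did not show this gap. The log2 ratio of replicate 2 to replicate 1 was set against transcript GC content by Spearman correlation. In UTX-AID groups it gave -0.21 (6 h without IAA) to -0.03. The other groups of BAP1-AID gave -0.06 to 0.02. For the 3 h group of BAP1-AID without IAA it was -0.12 over 14061 genes, outside the range of the other BAP1-AID groups. Without replicate 1 and without replicate 2, in this order, the 3 h log2FC of that arm was 0.92 and 0.40 for *Nr6a1* (adjusted p = 1.19e-06 and 0.00188), 0.75 and 0.18 for *Nr2c1* (0.00643 and 0.547), and -0.12 and -0.55 for *Nr5a2* (0.642 and 0.00616). For *Nr2c2* it was 0.55 and -0.01 (0.000381 and 0.986). These 4 values thus moved by over 1.5 times in one direction or both with the library used, and the part of the pair in the spread was not tested.

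*Nr0b1*, the DAX1 gene, rose early in BAP1-AID, with a smaller further change from 3 to 6 h. Without IAA it was at 84.3 and 83.6 CPM at 0 h, 147 and 142 CPM at 3 h, and 153 and 157 CPM at 6 h. With IAA it was at 62.8 and 66.3, 127 and 124, and 133 and 138 CPM. Every RA-treated library was above the 0 h libraries of its arm. In UTX-AID without IAA it began higher, at 113 and 117 CPM, and was at 146 and 142 CPM at 3 h and 139 and 143 CPM at 6 h. With IAA its values were 119 and 95.1, 140 and 124, and 140 and 135 CPM. After RA both lines were thus between 124 and 157 CPM, and at 0 h between 62.8 and 119 CPM.

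In BAP1-AID the log2FC of *Nr0b1* was 0.80 at 3 h (SE 0.06, adjusted p = 4.91e-06) and 0.91 at 6 h (SE 0.06, adjusted p = 9.4e-07) without IAA, and 0.99 (SE 0.06, adjusted p = 7.27e-07) and 1.09 (SE 0.06, adjusted p = 1.92e-07) with IAA. In UTX-AID it was 0.33 at 3 h (SE 0.09, adjusted p = 0.0417) and 0.30 at 6 h (SE 0.09, adjusted p = 0.0547) without IAA, and 0.32 (SE 0.09, adjusted p = 0.0644) and 0.38 (SE 0.09, adjusted p = 0.014) with IAA. Of these 4 values 2 lay just outside the threshold, and their intervals, 0.13 to 0.51 at 3 h with IAA and 0.11 to 0.49 at 6 h without IAA, did not include 0. They passed in 5 of 7 and 6 of 7 other ways of fitting, with DESeq2 at 0.0134 and 0.0121. At 3 h with IAA the value was 0.50 (adjusted p = 0.00366) without 0 h replicate 1 and 0.16 (adjusted p = 0.632) without 0 h replicate 2. At 3 h without IAA the adjusted p rose above 0.05, to at most 0.189, when either 0 h or either 3 h replicate of that arm or either 6 h replicate of the +IAA arm was left out. At 6 h with IAA it rose to 0.233 without 0 h replicate 2 (log2FC 0.23), to 0.107 without 6 h replicate 1 and to 0.059 without 6 h replicate 2. From 3 to 6 h the change was 0.11 in BAP1-AID (95% interval 0.01 to 0.21, adjusted p = 0.161, edgeR). In UTX-AID it was 0.02 (-0.12 to 0.15, adjusted p = 0.979), so that the later step was small against the first. With a correction of the counts for GC content and transcript length the BAP1-AID step was 0.17 and passed (adjusted p = 0.0236, edgeR).

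The smaller RA response of *Nr0b1* in UTX-AID was tested as a difference between the lines over all 24 libraries, as the mean of both IAA arms. It was -0.56 at 3 h (UTX-AID minus BAP1-AID, 95% interval -0.73 to -0.39, adjusted p = 0.000432) and -0.66 at 6 h (-0.83 to -0.49, adjusted p = 3.22e-05, edgeR). At 0 h without IAA *Nr0b1* was higher in UTX-AID by 0.46 (0.29 to 0.63, adjusted p = 5.06e-05). Every one of these calls held when any 1 of the libraries was left out. On adjusted p alone, *Nr0b1* was the 1 member of 8 whose response differed at 3 h, where 0.755% of all genes did and 0.262% were called with the fold criterion. At 6 h 2 of 8 members differed, against 2.71% on adjusted p and 0.648% with the fold criterion. By both criteria 0 members were called at either time, also by DESeq2, with 1 and 4 members at an unadjusted p below 0.05.

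*Nr2c1*, the TR2 gene, was the lowest of the 6 well measured members and rose at 6 h in both arms of BAP1-AID. Without IAA it stood at 7.35 and 7.24 CPM at 0 h, 8.25 and 12.2 CPM at 3 h, and 14.5 and 17.03 CPM at 6 h. With IAA the values were 5.32 and 4.71, 9.48 and 11.4, and 15.4 and 13.8 CPM. At 6 h both arms had reached the same range, with all libraries above the 0 h libraries. In UTX-AID without IAA the values were 6.73 and 5.24 CPM at 0 h, 12.04 and 9.90 CPM at 3 h, and 10.3 and 9.96 CPM at 6 h. With IAA they were 7.50 and 6.49, 12.1 and 10.2, and 10.6 and 8.64 CPM. Here the highest library of each arm was 1 of 3 h, and the 6 h libraries stayed between 8.64 and 10.6 CPM, below all 6 h libraries of BAP1-AID.

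The 6 h log2FC of *Nr2c1* was 1.14 (SE 0.17, adjusted p = 0.000695) and 1.56 (SE 0.18, adjusted p = 6.06e-05) in BAP1-AID without and with IAA. With a correction of the counts for GC content and transcript length the first value was 0.96 and no longer met the fold criterion. The 6 h values of UTX-AID were 0.77 without IAA (SE 0.18, adjusted p = 0.0127) and 0.49 with it (SE 0.17, adjusted p = 0.133). BAP1-AID cells at 3 h had 0.50 without (adjusted p = 0.125) and 1.08 with IAA (adjusted p = 0.0023), the first being 0.75 when 3 h replicate 1 was left out (adjusted p = 0.00643) and 0.18 when 3 h replicate 2 was (adjusted p = 0.547). Those of UTX-AID had 0.89 without (adjusted p = 0.00612) and 0.69 with IAA (adjusted p = 0.0377).

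Leaving out libraries moved the UTX-AID calls of *Nr2c1*. At 3 h without IAA the adjusted p was 0.0957 without 0 h replicate 2 and 0.0698 without 3 h replicate 1. At 6 h without IAA it was 0.155 (log2FC 0.58) without 0 h replicate 2, 0.0698 without 6 h replicate 1 and 0.0515 without 6 h replicate 2. At 3 h with IAA it lay between 0.0584 and 0.318 when any of the 0 h or 3 h replicates of that arm was left out. From 3 to 6 h *Nr2c1* rose by 0.56 in BAP1-AID (95% interval 0.30 to 0.82, adjusted p = 0.0143), and in UTX-AID the value was -0.16 (-0.42 to 0.10, adjusted p = 0.697, edgeR). The BAP1-AID value had an adjusted p of 0.0692 without −IAA 6 h replicate 2, 0.0708 without +IAA 3 h replicate 1 and 0.0666 without +IAA 6 h replicate 1. As a difference between lines, the 6 h response of *Nr2c1* was lower in UTX-AID, at -0.72 (-1.09 to -0.35, adjusted p = 0.029). It was -0.63 (adjusted p = 0.0674) with the correction for GC content and length, and the adjusted p reached up to 0.119 when single libraries were left out.

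*Nr2c2*, the TR4 gene and paralog of *Nr2c1*, moved less and differently. In BAP1-AID without IAA it stood at 58.8 and 55.6 CPM at 0 h, 56.9 and 82.8 CPM at 3 h, and 75.9 and 68.1 CPM at 6 h. In the +IAA arm it was at 77.7 and 85.8, 99.1 and 93.5, and 92.2 and 92.4 CPM. The +IAA libraries lay above the −IAA libraries at each time, and RA-treated libraries were above 0 h in 3 of 4 comparisons. In UTX-AID without IAA it was at 75.7 and 66.7 CPM at 0 h, 97.0 and 94.1 CPM at 3 h, and 81.7 and 90.7 CPM at 6 h. With IAA it was at 57.0 and 70.0, 83.9 and 85.5, and 72.2 and 84.0 CPM. RA-treated libraries of UTX-AID were above those of 0 h in 4 of 4 comparisons, and the highest library of each arm was 1 of 3 h.

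In UTX-AID *Nr2c2* rose at 3 h by 0.44 without IAA (SE 0.10, adjusted p = 0.0158) and by 0.44 with IAA (SE 0.10, adjusted p = 0.0193). At 6 h the values were 0.29 (adjusted p = 0.114) and 0.33 (adjusted p = 0.0681), the latter passing in 5 of 7 other ways of fitting, DESeq2 among them (0.0245). The response of *Nr2c2* was not shown to differ between the lines, at 0.16 for 3 h (95% interval -0.10 to 0.42, adjusted p = 0.855) and 0.04 for 6 h (-0.23 to 0.30, adjusted p = 1). Fitted with all 24 libraries together, the 3 h values had adjusted p = 0.0544 and 0.0768. The adjusted p at 3 h without IAA was 0.169 without 0 h replicate 2 and 0.0843 without 3 h replicate 1. With IAA it was 0.279 without 0 h replicate 1, 0.0864 without 3 h replicate 1 and 0.113 without 3 h replicate 2. The BAP1-AID values, 0.20 to 0.36, had adjusted p of 0.1 or more (edgeR). Without 3 h replicate 1 or 2 of the −IAA arm, however, those at 6 h without IAA (0.36 and 0.33) had adjusted p = 0.00119 and 0.00246 and those at 3 h with IAA (0.26 and 0.24) 0.0206 and 0.0379. The 3 h value without IAA, 0.30, was 0.55 (adjusted p = 0.000381) without 3 h replicate 1 and -0.01 (adjusted p = 0.986) without 3 h replicate 2, so that it rested on which of these libraries was used.

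*Nr2f6*, the EAR2 gene, was the member that fell in BAP1-AID. Without IAA it was at 17.1 and 15.7 CPM at 0 h, 13.9 and 13.7 CPM at 3 h, and 11.0 and 12.4 CPM at 6 h. The +IAA libraries gave 13.2 and 14.3, 12.7 and 13.5, and 9.13 and 9.68 CPM. The 6 h libraries lay below the 0 h libraries in both arms. In UTX-AID without IAA it was at 14.3 and 14.0 CPM at 0 h, 14.1 and 16.0 CPM at 3 h, and 12.6 and 18.3 CPM at 6 h. With IAA the levels were 13.2 and 17.1, 17.01 and 16.0, and 12.8 and 14.3 CPM. None of the RA-treated groups of UTX-AID lay apart from its 0 h group.

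The 6 h log2FC of *Nr2f6* in BAP1-AID was -0.46 (SE 0.10, adjusted p = 0.00904) without and -0.53 (SE 0.10, adjusted p = 0.00393) with IAA. The first became -0.40 without 0 h replicate 1 (adjusted p = 0.0752) and -0.40 without 6 h replicate 1 (adjusted p = 0.0856). At 3 h the values were -0.23 (adjusted p = 0.252) and -0.04 (adjusted p = 0.939), and the correction for GC content and length turned the first into -0.39 (adjusted p = 0.0466). In UTX-AID all 4 values were between -0.13 and 0.15, with adjusted p of 0.768 or more (edgeR). From 3 to 6 h *Nr2f6* fell in BAP1-AID, with a value of -0.35 (95% interval -0.51 to -0.19, adjusted p = 0.0117), which was -0.25 (adjusted p = 0.084) with the correction. That step also missed the threshold without −IAA 6 h replicate 1 (adjusted p = 0.0625), +IAA 3 h replicate 2 (0.0558) or +IAA 6 h replicate 1 (0.0596). The difference between lines in the 6 h response was 0.50 (0.20 to 0.80, adjusted p = 0.0729, edgeR), with an adjusted p of 0.0466 by DESeq2. *Nr2f6* has the highest GC content of the members, 69.1% of its transcript.

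*Nr5a2*, the LRH-1 gene, fell in UTX-AID between 3 and 6 h. Without IAA it was at 31.3 and 29.1 CPM at 0 h, 32.0 and 28.3 CPM at 3 h, and 21.5 and 19.6 CPM at 6 h. In the +IAA libraries it had 23.8 and 24.9, 21.8 and 22.3, and 19.1 and 15.2 CPM. The 6 h libraries were the lowest of each arm, and every +IAA library was below the −IAA libraries of its time. In BAP1-AID without IAA it was at 21.9 and 26.98 CPM at 0 h, 16.7 and 22.3 CPM at 3 h, and 20.6 and 20.5 CPM at 6 h. The +IAA arm had 27.7 and 27.4, 23.4 and 22.6, and 21.0 and 21.1 CPM. RA-treated libraries were below 0 h in 3 of 4 comparisons in each line.

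At 6 h *Nr5a2* had a log2FC of -0.54 (SE 0.12, adjusted p = 0.00738) and -0.47 (SE 0.12, adjusted p = 0.0215) in UTX-AID without and with IAA. The first was -0.48 without 0 h replicate 1 (adjusted p = 0.0624) and -0.47 without 6 h replicate 2 (0.0904), and the second -0.50 (0.0759), -0.44 (0.144) and -0.32 (0.281) without 0 h replicate 1, 0 h replicate 2 and 6 h replicate 2. BAP1-AID had 6 h values of -0.22 without (adjusted p = 0.311) and -0.37 with IAA (adjusted p = 0.0801), which the correction for GC content and length moved to -0.34 (adjusted p = 0.0314) and -0.38 (adjusted p = 0.0142). The second also passed without 3 h replicate 1 (-0.37, adjusted p = 0.0139) or replicate 2 (-0.39, adjusted p = 0.00888) of the −IAA arm. At 3 h it had -0.31, -0.23, 0.01 and -0.12 over the 4 arms, with adjusted p of 0.225 or more, and the first was -0.55 (adjusted p = 0.00616) without 3 h replicate 2, -0.12 (0.642) without 3 h replicate 1 and -0.14 (0.778) without 0 h replicate 2. The step from 3 to 6 h was -0.45 in UTX-AID (95% interval -0.63 to -0.28, adjusted p = 0.00915, edgeR). Without +IAA 6 h replicate 2 it was -0.37 and the call was lost. In BAP1-AID the step was -0.02 (-0.22 to 0.18, adjusted p = 0.918). The 6 h response was not shown to differ between the lines (-0.21, -0.47 to 0.05, adjusted p = 0.514).

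For the step from 3 to 6 h as a whole, 3 of 8 members passed on adjusted p in BAP1-AID, where 8.14% of all genes did, and 2 of 7 in UTX-AID, where 1.67% did. With the fold criterion 0 members were called in either line by edgeR or DESeq2, with 4 and 2 at an unadjusted p below 0.05, against 0.599% and 0.117% of all genes. *Nr6a1* was the member that passed in both lines.

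*Nr2f1* and *Nr2f2*, the COUP-TF genes, had few counts. *Nr2f1* had 14 and 0 counts at 0 h, 0 and 14 at 3 h, and 3 and 16 at 6 h in BAP1-AID without IAA, and 11 and 23, 0 and 17, and 8 and 0 with IAA. In UTX-AID it had 7 and 0, 10 and 0, and 0 and 10 counts without IAA, and 15 and 0, 8 and 0, and 0 and 12 with IAA. In most groups 1 replicate was at 0 or 3 and the other at 7 or more, so no order of times could be read. *Nr2f2* had 0 and 8 counts at 0 h, 4 and 0 at 3 h, and 20 and 23 at 6 h in BAP1-AID without IAA, and 0 and 11, 12 and 0, and 25 and 21 with IAA. In UTX-AID it had 0 and 0, 0 and 0, and 0 and 7 counts without IAA, and 0 and 4, 0 and 8, and 0 and 0 with IAA. In BAP1-AID all 4 libraries of 6 h were above all libraries of 0 and 3 h. Neither gene passed a test, and no fold is given because most groups were at or under the floor in at least 1 library. The most frequent value above 0 in every library was 4, so these estimated counts are coarser than single reads.

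**Figure D3:**
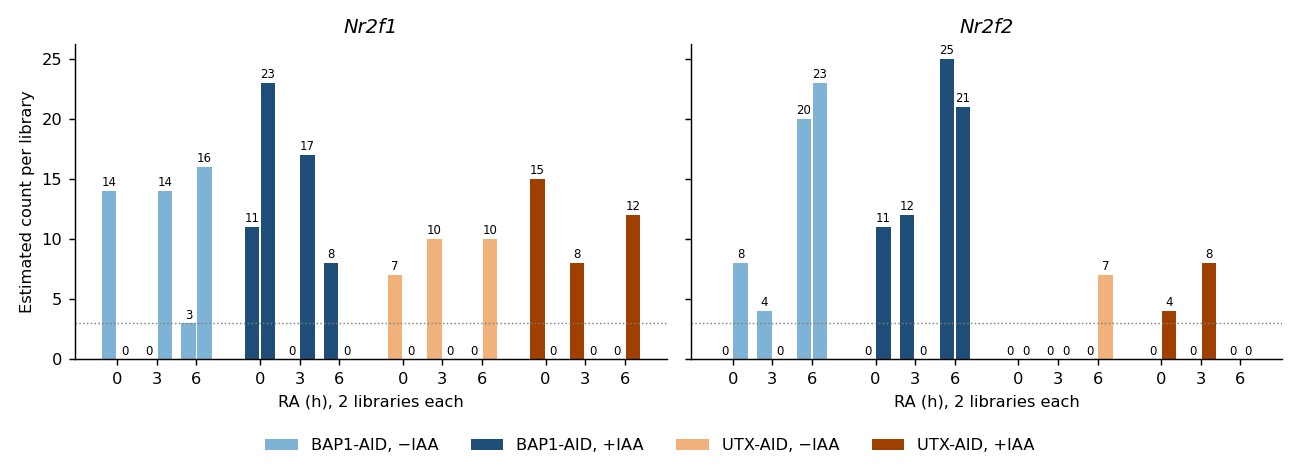
Bars give the estimated counts (y axis) of *Nr2f1* and *Nr2f2* in each of the 24 libraries (x axis), with a dotted line at 3 counts. *Nr2f2* reaches 20 to 25 counts in the 4 BAP1-AID libraries of 6 h and no more than 12 elsewhere, and *Nr2f1* is scattered between 0 and 23.

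The +IAA arms address whether IAA together with the loss of BAP1 or UTX moved the members, and these parts cannot be told apart. The comparison of +IAA with −IAA libraries over all times was the mean of the 3 RA times in each line. In BAP1-AID, *Nr0b1* and *Nr2f6* were lower with IAA and *Nr2c2* was higher, and in UTX-AID *Nr5a2* was lower. Of the 8 members in BAP1-AID, 3 passed on adjusted p against 36.1% of all genes, a share close to that background, and 0 passed both criteria against 1.51%. In UTX-AID 1 of 7 passed against 2.62%, and 0 passed both criteria against 0.135%. DESeq2 also called 0 in both lines, and 4 and 2 members had an unadjusted p below 0.05.

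In BAP1-AID the mean effect of IAA on *Nr0b1* was -0.28 (95% interval -0.35 to -0.20, adjusted p = 9.32e-05), with all +IAA libraries below the −IAA libraries at each of the 3 times. *Nr2f6* had -0.23 (-0.36 to -0.10, adjusted p = 0.00921), also below at each time, or -0.19 (adjusted p = 0.0528) without −IAA 6 h replicate 2. *Nr2c2* had 0.43 (0.26 to 0.60, adjusted p = 0.00103) and was above at each time. Over 15168 genes the IAA effect in this line went with transcript GC content at a Spearman correlation of -0.47, and at 0.0227 over the genes tested in UTX-AID. *Nr2f6* and *Nr0b1*, which were lower, have GC contents of 69.1% and 55.0%, and *Nr2c2*, which was higher, 46.0%. With the correction for GC content and length the values were -0.08 for *Nr0b1* (adjusted p = 0.115), -0.16 for *Nr2f6* (adjusted p = 0.0868) and 0.24 for *Nr2c2* (adjusted p = 0.00611). *Nr2c1*, at -0.22 (adjusted p = 0.104) without the correction, had -0.47 (adjusted p = 0.00215) with it. *Nr6a1* was at 0.12 (adjusted p = 0.244) and *Nr5a2* at 0.13 (adjusted p = 0.202). Where the GC trend comes from was not tested.

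In UTX-AID *Nr5a2* was lower with IAA at each of the 3 times, with a mean effect of -0.34 (95% interval -0.48 to -0.20, adjusted p = 0.0158, edgeR), which held with every library left out in turn. *Nr2c2* had -0.16 (-0.28 to -0.04, adjusted p = 0.185), and *Nr6a1*, *Nr0b1*, *Nr2c1* and *Nr2f6* were between -0.09 and 0.06 with adjusted p of 0.462 or more. Between the lines, the effect of IAA on *Nr5a2* differed by -0.49 (UTX-AID minus BAP1-AID, -0.70 to -0.27, adjusted p = 0.00101) and that on *Nr2c2* by -0.61 (-0.82 to -0.39, adjusted p = 0.000106). These were 2 of 8 members against 25.9% of all genes on adjusted p, and 0 of 8 against 2.22% with the fold criterion (0 by DESeq2, 3 at an unadjusted p below 0.05). With the correction for GC content and length the differences were -0.34 (adjusted p = 0.0128) and -0.40 (adjusted p = 0.00127). The difference of *Nr2c1* was 0.27 (adjusted p = 0.201) without the correction and 0.53 (adjusted p = 0.0133, edgeR) with it.

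**Figure D4:**
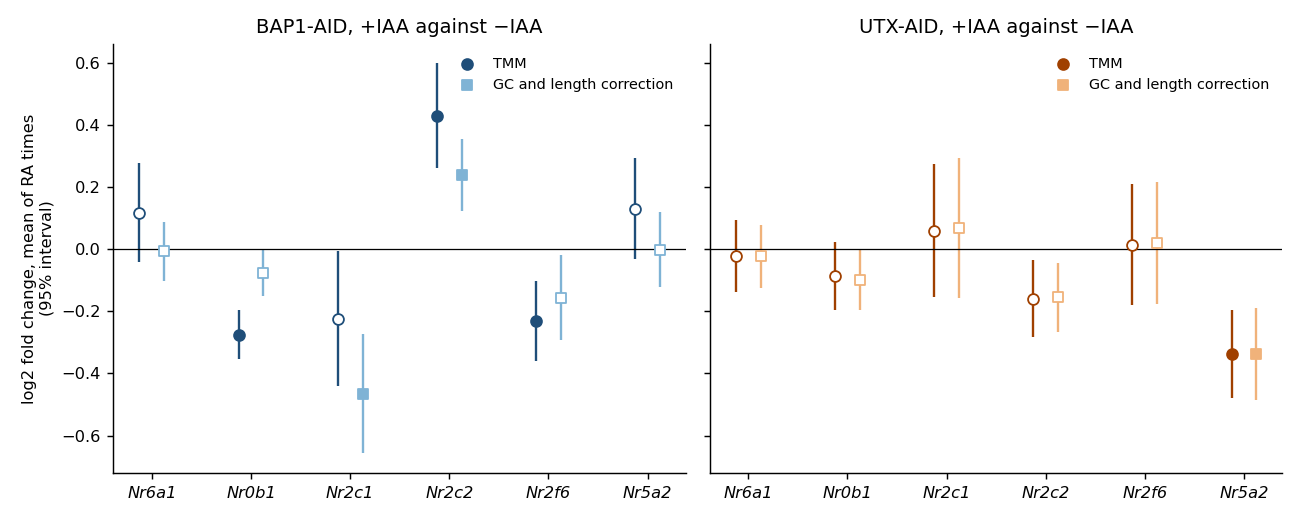
Log2FC of +IAA against −IAA libraries (y axis), as the mean of the 3 RA times, for 6 members (x axis) in BAP1-AID (left) and UTX-AID (right), with 95% intervals, as circles before and squares after correction for GC content and length, filled where the adjusted p is below 0.05. *Nr0b1* in BAP1-AID moves from -0.28 to -0.08 with the correction, whereas *Nr5a2* in UTX-AID stays at -0.34.

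Whether IAA changed the RA response itself was tested as an interaction. Of the members, 0 were called at 3 or 6 h in either line by edgeR or DESeq2, where the shares of all genes called were 0% and 0.0255% for BAP1-AID, then 0.0123% and 0% for UTX-AID. At an unadjusted p below 0.05 there was 1 member, *Nr2c1* at 3 h in BAP1-AID, with a difference of 0.58 between the arms (95% interval 0.04 to 1.12, adjusted p = 0.641). For *Nr6a1* at 6 h the interval was -0.33 to 0.46 in BAP1-AID and -0.51 to 0.06 in UTX-AID, and for *Nr0b1* it was -0.01 to 0.37 and -0.19 to 0.35.

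At 0 h without IAA the lines themselves differed. *Nr6a1* was lower in UTX-AID, at -0.86 (UTX-AID minus BAP1-AID, 95% interval -1.11 to -0.60, adjusted p = 2.6e-06) and *Nr0b1* higher by 0.46, with both calls holding in every left-out fit. *Nr5a2* (0.31, adjusted p = 0.043) and *Nr2c2* (0.31, adjusted p = 0.041) were also higher on adjusted p, and their values with the correction for GC content and length were 0.12 (adjusted p = 0.422) and 0.13 (adjusted p = 0.311). Their adjusted p reached up to 0.491 and 0.319 when single libraries were left out. These 4 of 8 members compare with 52.6% of all genes on adjusted p, and 0 of 8 with 20.9% with the fold criterion (0 by DESeq2, 4 at an unadjusted p below 0.05). *Nr2c1* was at -0.28 (adjusted p = 0.204), or -0.90 (adjusted p = 0.000265) with the correction. Marker lists of other cell types moved with RA time or line. In BAP1-AID the extraembryonic endoderm sum was 3.64 to 5.98 CPM at 0 h and 8.28 to 8.99 CPM at 6 h, and the mesoderm sum 11.8 to 16.1 and 6.61 to 8.82 CPM. In UTX-AID these were 2.24 to 5.30 and 3.26 to 5.22 CPM for endoderm, and 4.38 to 7.57 and 4.30 to 5.86 CPM for mesoderm. Over all times, the fibroblast sum was 5.60 to 10.2 CPM in BAP1-AID and 0.852 to 2.67 CPM in UTX-AID, and the neural sum 85.8 to 101 and 51.6 to 76.3 CPM. The part of these cell types in the members' values was not tested.

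The rest of the nuclear receptor family is given for scale. Of 41 further receptor genes, 29 had enough counts for the test in BAP1-AID and 30 in the other line. Of these, calls in the upward direction alone are given. They were 3 in each arm of BAP1-AID at 6 h, and 1 and 2 in UTX-AID without and with IAA. Of all genes 2.98% and 3.18% were called up in BAP1-AID without and with IAA, and 1.51% and 1.63% in UTX-AID. The tested receptors had a median log2FC at 6 h of 0.12 without and -0.14 with IAA for BAP1-AID. For UTX-AID it was 0.04 without and -0.13 with IAA. Over all genes the median was 0.02 or nearer to 0 in each arm. Called up in both arms of BAP1-AID were *Rara*, an RA receptor (1.25 and 1.01), and *Rarb*, an RA receptor and direct RA target. *Rarb* went from 0.0296 to 14.3 CPM in BAP1-AID and from 0.186 to 4.81 CPM in UTX-AID without IAA, and it was also called up in both arms of UTX-AID.

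**Figure D5:**
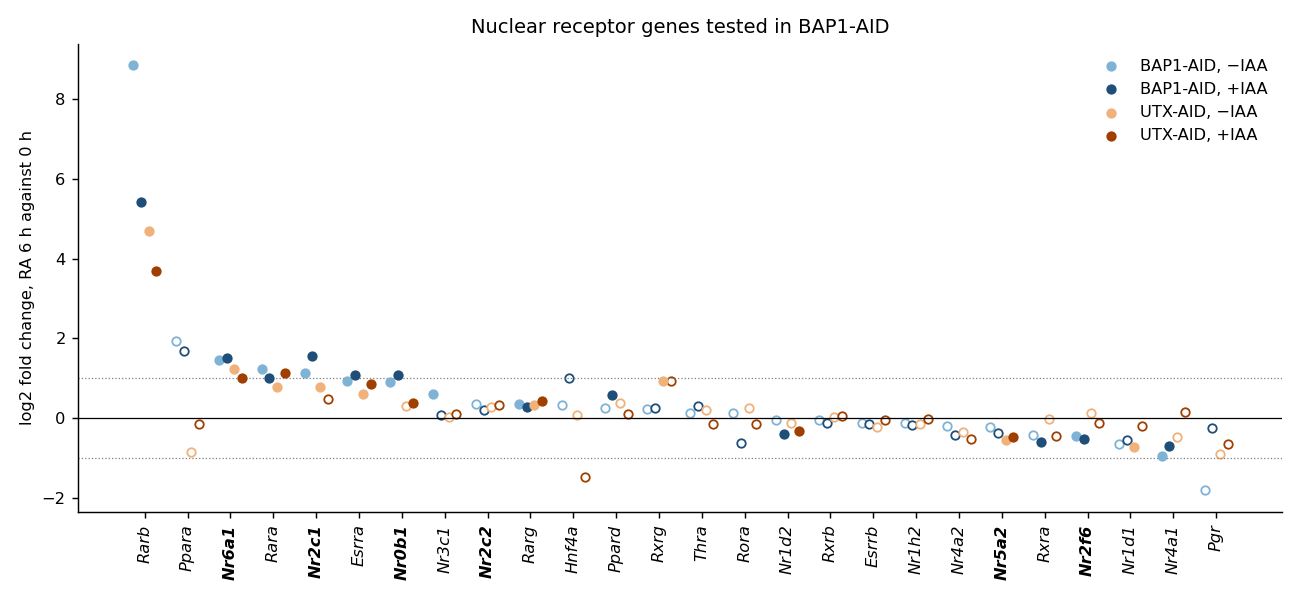
Log2FC of 6 h against 0 h of RA (y axis) for 20 other nuclear receptors with a highest group mean of at least 1 CPM and for the 6 well measured members in bold (x axis), in the 4 arms, filled where the adjusted p is below 0.05. *Rarb* lies highest (in BAP1-AID without IAA from a 0 h mean of 0.0296 CPM, under the floor of 3 counts), and *Nr6a1* lies at 1.00 to 1.52.

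Of 7 genes known as targets of GCNF or its partners, 6 were tested and 0 were called at 6 h in any arm by edgeR, against 1.91% to 4.51% of all genes. By adjusted p alone (edgeR), 1 target fell in each arm of UTX-AID at 3 h and at 6 h, and 0 fell in BAP1-AID. At 6 h in BAP1-AID, however, DESeq2 gave 1 fall in each arm. The correction for GC content and length gave 1 there without and 2 with IAA. In UTX-AID 2 targets rose in each arm at 3 h, and 1 without and 2 with IAA at 6 h. In BAP1-AID 1 rose in each arm at both times. Of all genes, 3.57% to 7.37% passed on adjusted p in either direction at 3 h over the arms, and 6.45% to 15.9% at 6 h. *Pou5f1*, the gene that GCNF silences in later differentiation, had log2FC values of -0.10, -0.11, -0.08 and -0.07 at 6 h over the 4 arms, with adjusted p of 0.296 or more. *Nanog* was higher at 6 h, by 0.35 (adjusted p = 0.0347), 0.73 (adjusted p = 0.000342), 0.50 (adjusted p = 0.00475) and 0.72 (adjusted p = 0.000196, edgeR). With the correction for GC content and length 0 targets rose at 6 h in BAP1-AID without IAA, so the first of these *Nanog* values did not pass. At 6 h, when *Nr6a1* RNA had risen in every arm, neither *Pou5f1* nor *Nanog* was lower by edgeR without the correction. GCNF protein was not measured in these libraries, and a link between *Nr6a1* and either gene was not tested. The falls in UTX-AID at 6 h were thus outside this pair. Of 10 cofactor genes all were tested and none was called in both arms of a line. *Bcl11a*, a COUP-TF partner named here after its values were seen, was called down at 6 h in UTX-AID without IAA (-1.19). Of all genes 0.4% were called down in that comparison. No cofactor was called down at 6 h in any other arm.

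The courses of the called members were also compared with all genes above a mean log2 CPM of 1, by Pearson's r of group means over the 12 groups and 11072 genes, as a description. Groups of a line share its baseline and GC trend, which adds to such likeness. *Nr6a1* was most like *Dnm2* (0.991), *Pecam1* (0.987) and *Ldlrad3* (0.986). *Nr0b1* was most like *Slc25a15* (0.976), *Kcnk6* (0.962) and *Slc43a1* (0.962). *Nr2c1* was most like *H2-Bl* (0.954), *Iqgap3* (0.949) and *Porcn* (0.939).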

How the data were processed

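RNA-seq of 24 libraries was analysed from 1 deposited table of estimated counts per gene. The authors aligned reads to mm39 with HISAT2 2.2.1, handled them with SAMtools 1.19 and made the estimated counts with StringTie 2.2.1 (deepTools 3.5.4 is also listed in the submitters' processing notes). The annotation and strandedness are not given in the sources used here. The deposited values were whole, so none was rounded, and 0 per-sample columns were left unused. Groups came from the sample titles. Nothing says that replicates were separate cultures, so p-values measure the spread between these libraries, which may be technical.

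In R 4.3.3, genes were kept at a minimum count of 10 and a total of 15 (15695 in BAP1-AID, 16268 in UTX-AID, 16816 in both), scaled by TMM and fitted with edgeR 4.0.16 quasi-likelihood tests per line over 12 libraries, and over 24 for differences between lines. limma 3.58.1 was loaded by edgeR. SE was derived from the F statistic and intervals are 95%. The steps were tested on simulated data. Alternatives were DESeq2 1.42.0, RLE scaling, no filter, a replicate block, all libraries in 1 fit, a correction for GC content and length (splines of 5 degrees of freedom), adjusted p alone and each library left out.

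Members and gene lists were chosen with earlier results of these data known. All members were named, with other receptors, targets and cofactors called at 6 h in both arms of a line, *Pou5f1*, *Nanog*, the RA targets and the 3 genes nearest in course to each called member. The test of the IAA effect between lines was chosen after the data were seen. Promoter windows of 250 bases were read from GRCm39. The result for 1 gene of the other receptors is not reported here.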

Additional observations from a re-analysis of the deposited data

Results flagged for a closer look

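Each of the following is a difference between the lines in a response to the same treatment, tested directly over all 24 libraries (edgeR, UTX-AID minus BAP1-AID). For *Nr0b1*, the RA response differed by -0.56 at 3 h (adjusted p = 0.000432), and the 6 h response by -0.66 (adjusted p = 3.22e-05). The RA response of *Nr2c1* at 6 h differed by -0.72 (adjusted p = 0.029), a call lost with the correction for GC content and length. The effect of IAA differed by -0.49 for *Nr5a2* (adjusted p = 0.00101) and by -0.61 for *Nr2c2* (adjusted p = 0.000106). Both of these differences were smaller with the correction. The test of the IAA effect between lines was chosen after the data were seen. On adjusted p 2 of 8 members passed it, a share close to the 25.9% of all genes that did. A difference between the tagged proteins cannot be told apart from one between clones.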

How the results depend on the processing

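Counts of members called changed mainly with the criterion. On adjusted p alone they were 2, 4, 3 and 4 in BAP1-AID (3 h and 6 h without IAA, then with IAA), 4, 3, 3 and 3 in UTX-AID, 3 and 2 from 3 to 6 h, 3 and 1 for IAA in BAP1-AID and UTX-AID, and 4, 1, 2 and 2 for differences between lines. At 6 h in BAP1-AID without IAA, 1 member was called with the correction for GC content and length, alone or with the replicate block, and at 6 h in UTX-AID with IAA 0 were called when all 24 libraries were fitted together, where *Nr6a1* lay at the fold criterion. Leaving out single libraries gave 1 to 2 members called at 6 h in BAP1-AID without IAA (1 without −IAA 6 h replicate 2), 0 to 1 at 3 h in BAP1-AID with IAA (0 without +IAA 0 h or 3 h replicate 2), 0 to 1 at 3 h in UTX-AID without IAA (1 without −IAA 0 h replicate 1 or 3 h replicate 2) and 0 to 1 at 6 h in UTX-AID with IAA (0 without +IAA 0 h replicate 1 or 6 h replicate 2).

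Some values changed sign. *Nr5a2* at 3 h in UTX-AID without IAA was -0.00078 with the correction, -0.0020 with the correction and block, -0.0042 in the fit of all libraries, and -0.091 to 0.11 with libraries left out. With libraries left out, *Nr2c2* at 3 h in BAP1-AID without IAA was -0.0075 to 0.55, and *Nr2f6* in UTX-AID was -0.15 to 0.37 at 6 h without IAA, -0.023 to 0.34 at 3 h with IAA and -0.30 to 0.066 at 6 h with IAA.

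Replicate numbers did not pair the libraries. Deviations of equal numbers from their group means correlated at -0.0387 to 0.0626 in BAP1-AID and -0.0119 to 0.0724 in UTX-AID over 15 pairs of groups each. The replicate block left all 20 counts as they were, at 2 members called at 6 h in BAP1-AID without IAA for example, and 6 values newly passed: *Nr0b1* in UTX-AID at 6 h without IAA (adjusted p = 0.0120) and 3 h with IAA (0.0124), *Nr2c1* (0.0337) and *Nr2c2* (0.0324) there at 6 h with IAA, and the line differences in 6 h response of *Nr2f6* (0.0407) and *Nr6a1* (0.0229). RLE scaling and DESeq2 left all 20 counts the same. The cause of the changes was not tested. *Nr2f1* and *Nr2f2*, at 0 to 25 counts a library, were often under the floor of 3 counts.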
